A study of Mus musculus with 51 samples.

Results

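Homeostatic microglia are described by a small set of genes that resting microglia of the adult brain carry at high levels, and 9 of them were followed here through chronic intermittent ethanol (CIE) exposure: P2ry12, Cx3cr1, Tmem119, Fcrls, Gpr34, Siglech, Olfml3, Sall1 and P2ry13. They were chosen by symbol, and each of the 9 was found among the 24421 genes counted in every library. These genes and the other gene lists were chosen with earlier results of these data known. Their counts set against shares of all genes are therefore descriptions. In microglia of CIE mice 2 of the 9 genes fell, Fcrls by 1.06 and Gpr34 by 0.64 on the log2 scale, and none rose. Of all genes tested there 1.15% were called lower. All 9 estimates were below 0, as were 5486 of the 10761 genes tested. Neither astrocyte nor total homogenate libraries gave a call for any of the 9 in the main fits. The calls in microglia depended on processing. With neutrophil markers as a covariate none of the 9 was called, where 0.0743% of all genes were called lower. On scaling to macrophage lineage genes only Fcrls was called, where 0.139% of all genes were called lower. DESeq2, which called 1.95% of the genes with an adjusted p lower, also called Olfml3 and P2ry12. So did a fit adjusted for ranges of mouse numbers, where 2.56% of all genes were called lower.

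Microglia are the resident macrophages of the brain. In the healthy adult brain they survey the tissue with moving processes and keep a gene program that other macrophages largely lack, which is held up by TGF-beta signaling and by the transcription factors PU.1, IRF8 and SALL1. Part of this program is known to decline when microglia respond to injury, infection or plaques, so its members serve both as markers of microglia and as a readout of their state. Sall1 encodes the last of these, a zinc finger factor that maintains microglial identity. P2ry12, P2ry13 and Gpr34 encode G protein-coupled receptors, the first 2 for ADP and the third for lysophosphatidylserine. P2ry12 steers microglial processes toward released nucleotides. Cx3cr1 encodes the receptor of fractalkine, a ligand made by neurons. Siglech encodes a sialic acid binding lectin that signals through the adaptor Tyrobp, Fcrls an Fc receptor-like scavenger receptor, Tmem119 a membrane protein, and Olfml3 a secreted olfactomedin-like protein.

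RNA came from the prefrontal cortex of 17 male C57BL/6J mice, 8 weeks old when obtained, as 3 libraries per mouse, matched by the number in their labels. Astrocyte libraries were made from cells held by ACSA2 beads, and microglia libraries from the cells left by that step that CD11b beads held. Total homogenate libraries were made without selection of cells. CD11b is carried by microglia and by other myeloid cells alike. The 8 control mice breathed air and the 9 CIE mice ethanol vapor for 16 h per day in 4 weekly cycles, and both groups received pyrazole (1 mmol/kg), an inhibitor of alcohol dehydrogenase, while ethanol was injected in CIE mice only. Counts assigned to genes ranged from 2082289 to 10041788 in astrocyte, from 571878 to 6026453 in microglia and from 5042926 to 15594154 in homogenate libraries, and the lowest was the microglia library of CIE mouse 23. The members had 173 to 24055 counts per microglia library, 98 to 7366 per astrocyte library and 49 to 1755 per homogenate library, so none was limited by detection. Replicates are separate mice.

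The 9 genes lie on 6 chromosomes (mm10 coordinates, RefSeq gene bounds). P2ry12 (chr3:59216271-59262985, minus strand) and P2ry13 (chr3:59207892-59210882, minus strand) are neighbors 5388 bases apart, and both lie inside Med12l, which runs on the opposite strand. P2ry12 shares 9 exon bases with Med12l, and P2ry13 shares 0. Fcrls (chr3:87250736-87263765) and Olfml3 (chr3:103735394-103738001) are on the same chromosome, also on the minus strand. Gpr34 (chrX:13622650-13640859, plus strand) lies inside Cask, on the opposite strand, and shares 0 exon bases with it. Cx3cr1 is at chr9:120048683-120068296, Tmem119 at chr5:113793729-113800396, Siglech at chr7:55768154-55779448 and Sall1 at chr8:89027242-89044162. The strand setting used for counting is not given in the sources used here, so reads of a gene inside another could be shared with its host.

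The promoters of the 2 neighboring ADP receptors are shown because P2ry12 and P2ry13 sit in one locus. Each is the 250 bases before the RefSeq start (GRCm38.p6, which is mm10), at chr3:59262986-59263235 for P2ry12 and chr3:59210883-59211132 for P2ry13, both on the minus strand. Capitals mark matches to GAGGAA or GGAAGT, core sequences bound by PU.1 and related ETS factors, searched on both strands.
P2ry12: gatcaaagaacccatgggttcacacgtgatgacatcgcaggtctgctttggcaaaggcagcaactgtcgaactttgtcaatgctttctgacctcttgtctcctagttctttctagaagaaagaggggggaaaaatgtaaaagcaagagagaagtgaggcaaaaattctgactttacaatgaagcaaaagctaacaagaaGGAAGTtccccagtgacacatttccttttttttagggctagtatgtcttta
P2ry13: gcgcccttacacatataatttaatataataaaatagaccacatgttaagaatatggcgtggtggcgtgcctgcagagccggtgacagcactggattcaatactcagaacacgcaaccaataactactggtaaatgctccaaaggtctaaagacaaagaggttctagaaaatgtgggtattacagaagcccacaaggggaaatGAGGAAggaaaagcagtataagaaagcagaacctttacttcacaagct
P2ry12 held GGAAGT and P2ry13 held GAGGAA, at 51 and 48 bases before the start at their first base. Windows were found for 7 of the 9 genes, all but Tmem119 and Gpr34, and 5 of these 7 held at least 1 of the 2 motifs in 1 of their windows (P2ry12, P2ry13, Fcrls, Siglech and Sall1, which has 3 windows). Of 32851 promoter windows of the same length, 23.3% held GAGGAA, 19.7% held GGAAGT and 36.7% held either. The windows of Fcrls and Siglech each reach past the RefSeq gene start, and 2 of the 3 windows of Sall1, the one with a motif among them, lie inside that gene, and these windows count toward the 5. A match is a description of the letters and shows no binding.

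Fcrls separated the 2 groups of microglia libraries completely. Its level in CPM (counts per 1e6 library counts, scaled by the trimmed mean of M-values, TMM, within the preparation) was 1558, 1567, 1569, 1587, 1603, 1607, 1820 and 2111 in the 8 control mice. In CIE mice it was 983 in mouse 6, 990.0 in mouse 8, 668 in mouse 23, 829.9 in mouse 24, 425 in mouse 25, 253 in mouse 26, 992 in mouse 39, 1053 in mouse 40 and 1028 in mouse 41. Every CIE library lay below every control library, and among CIE mice the 4 numbered 23 to 26 were lowest. The log2 fold change was -1.06 (SE 0.213, adjusted p = 0.00864, edgeR quasi-likelihood test with Benjamini-Hochberg adjustment over all genes, as for every adjusted p unless another tool is named), so that control was 2.09-fold higher. Of all genes tested in microglia, 0.223% had every CIE library below every control library. Leaving out each mouse in turn moved the log2 fold change between -1.12 and -0.94, and the call held in 17 of 17 fits.

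Gpr34 was the other gene that fell. Its control libraries spanned 496 to 881 CPM (median 640.2) and its CIE libraries 263 to 522 CPM (median 456), and 8 of 9 CIE libraries lay below the lowest control library. The exception was mouse 6, at 522 CPM. The log2 fold change was -0.64 (SE 0.146, adjusted p = 0.0195), and it stayed below the threshold in 17 of 17 fits with 1 mouse left out, the largest adjusted p being 0.0439 without control mouse 20. The 2 calls among 9 genes compare with 1.15% of all tested genes called lower and 3.47% called in either direction in microglia. In bulk libraries fewer cells of a type and less RNA per cell cannot be told apart.

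The secreted protein Olfml3 and the ADP receptor P2ry12 came next and did not pass the test. Olfml3 spanned 855 to 1320.0 CPM (median 999.8) in control libraries, against 307 to 971 CPM (median 734) in CIE libraries, with a log2 fold change of -0.65 (SE 0.193, adjusted p = 0.0672). P2ry12 spanned 1369 to 2473 CPM (median 1768) in control libraries, against 862 to 1603 CPM (median 1339) in CIE libraries, with a log2 fold change of -0.48 (SE 0.145, adjusted p = 0.0704). For each of the 2 genes, 9 of 9 CIE libraries lay below the control median, and the ranges overlapped. DESeq2 called both (adjusted p = 0.0278 for Olfml3 and 0.0232 for P2ry12), and called 1.95% of the genes to which it gave an adjusted p lower. A fit adjusted for the mouse number ranges also called both (adjusted p = 0.0260 and 0.0392), and 2.56% of all genes lower. Over the alternatives run, adjusted p ranged from 0.0260 to 0.309 for Olfml3 and from 0.0232 to 0.416 for P2ry12.

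The remaining 5 genes had smaller differences that did not pass the test. P2ry13, the second ADP receptor, had a median of 722 CPM in control and 577 in CIE microglia, a log2 difference of -0.36 (SE 0.142, adjusted p = 0.172). Cx3cr1, the gene with the most counts, had medians of 3890.3 and 3389 CPM, a log2 difference of -0.26 (SE 0.126, adjusted p = 0.290). Siglech had medians of 743 and 619 CPM (log2 difference -0.22, SE 0.097, adjusted p = 0.230), and 7 of 9 CIE libraries were below its lowest control library while mouse 6, at 849 CPM, was near the highest control. Tmem119 (log2 difference -0.21, SE 0.124, adjusted p = 0.429) and Sall1 (-0.16, SE 0.139, adjusted p = 0.659) had the smallest differences. Across the 9 genes the median log2 fold change was -0.36, against -0.0052 over all 10761 genes tested, and 7 of the 9 had an unadjusted p under 0.05, as did 1821 of those genes (16.9%).

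**Figure D1:**
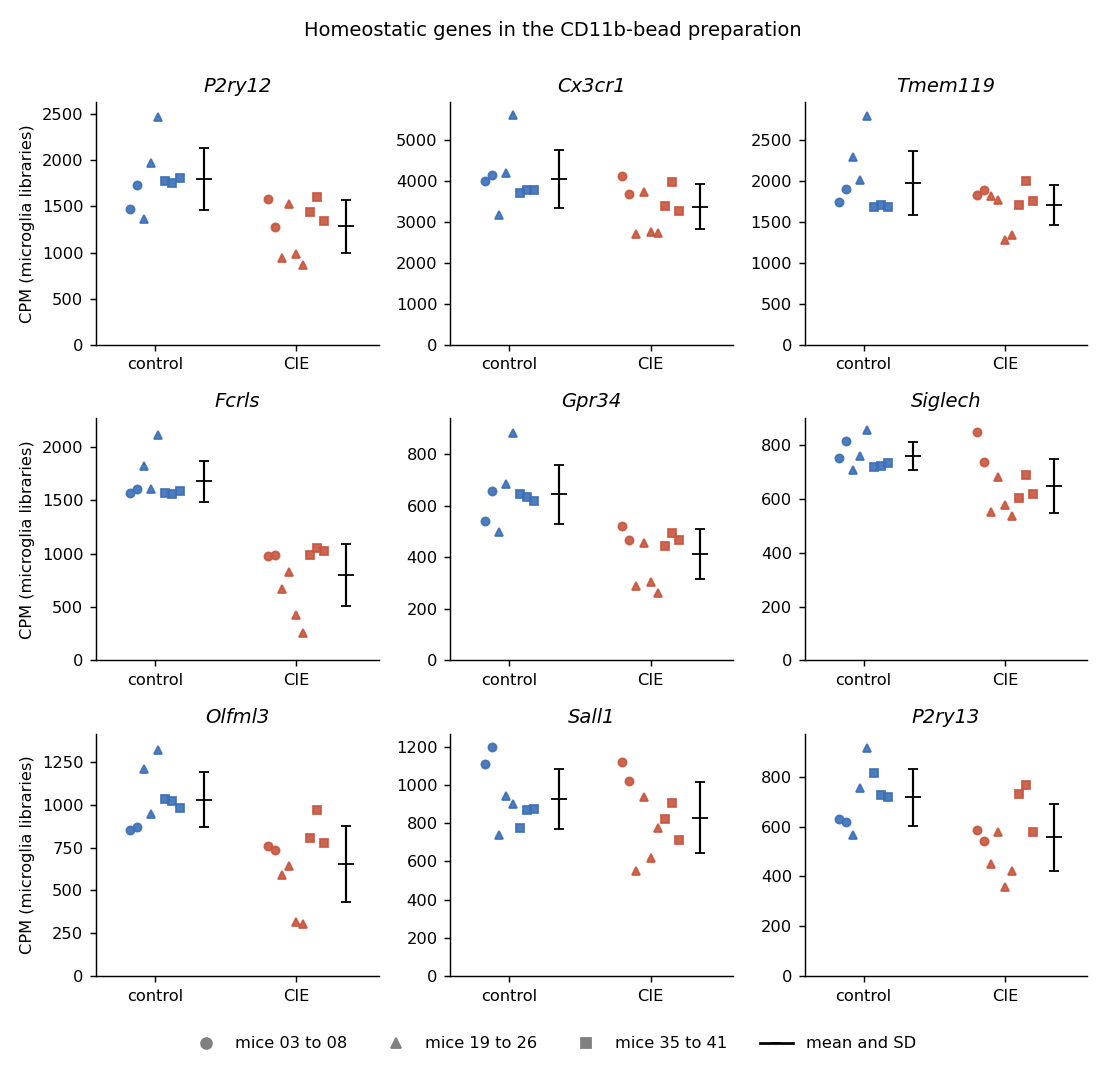
Level of each of the 9 genes in the microglia libraries of 8 control and 9 CIE mice, in CPM (linear axis from 0); each point is 1 mouse, its shape gives the range of mouse numbers, and bars give the mean and SD. The 9 CIE points of Fcrls lie at 253 to 1053 CPM, below the lowest control at 1558 CPM, while the CIE points of Sall1 and Tmem119 overlap with control.

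The size of the difference varied with the range of mouse numbers, which fall into 03 to 08 (2 control, 2 CIE), 19 to 26 (3 control, 4 CIE) and 35 to 41 (3 control, 3 CIE). What these ranges stand for is not given in the sources used here. Fcrls was lower in CIE in each range, with differences in mean log2 CPM of -0.69, -1.89 and -0.62. Gpr34 followed with -0.27, -1.06 and -0.43, Olfml3 with -0.21, -1.39 and -0.26, and P2ry12 with -0.17, -0.84 and -0.29. For all 9 genes the lowest value was in mice 19 to 26. Tmem119 was at 0.03, -0.62 and 0.11, so that its negative estimate came from that range. The same range was also lowest for the macrophage lineage reference genes Csf1r, C1qa, C1qb, C1qc, Ctss and Ly86, which ran from -0.44 for C1qb to -0.35 for Ly86 there and from -0.14 to 0.15 in the other 2 ranges. Whether the response differed between ranges was not tested.

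**Figure D2:**
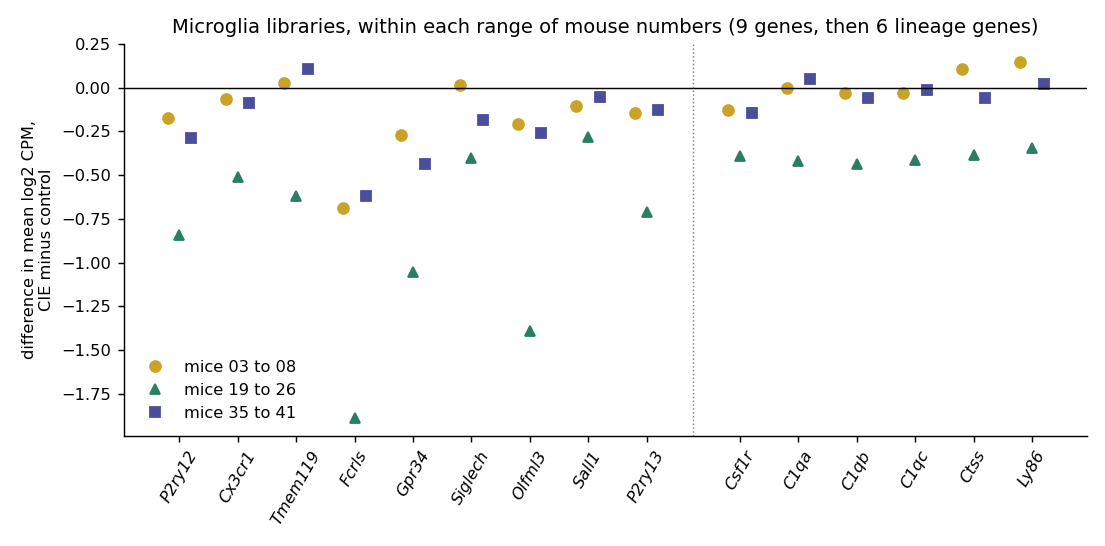
Difference in mean log2 CPM between CIE and control microglia libraries within each range of mouse numbers, for the 9 homeostatic genes and, right of the dotted line, 6 macrophage lineage genes. Mice 19 to 26 give the lowest point for each gene, from -1.89 for Fcrls to -0.28 for Sall1 among the 9, and Fcrls is below 0 in each range.

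Levels were also read against a list of 7 macrophage lineage genes, these 6 among them, that are not restricted to the homeostatic state. None of these 7 passed the test, where 3.47% of all genes were called in either direction. All 7 estimates were below 0, with a median log2 fold change of -0.18. Csf1r, the receptor of the growth factor that keeps microglia alive, was at -0.25 (SE 0.124, adjusted p = 0.309). When libraries were scaled to the summed counts of the 7 genes, which moved the median of all genes to 0.22, Fcrls had a log2 fold change of -0.84 (SE 0.191, adjusted p = 0.0110). Gpr34 was then at -0.42 (SE 0.134, adjusted p = 0.0545), Olfml3 at -0.43 (SE 0.172, adjusted p = 0.115) and P2ry12 at -0.26 (SE 0.134, adjusted p = 0.218). Siglech and Cx3cr1 were at -6.67e-05 and -0.031, and Tmem119 and Sall1 turned to 0.04 and 0.06. On this scale Fcrls was the 1 call among the 9, while 906 of all 10761 genes were called, 15 of them (0.139%) lower.

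Neutrophil markers moved with CIE in the same libraries. The summed level of 12 markers was 97.0 to 241 CPM (median 148) in control and 98.1 to 7471 CPM (median 311) in CIE microglia libraries, with none of the 12 at 0 across the libraries. Of all genes tested in microglia 3.47% were called in either direction. Of the 9 markers that could be tested 9 rose, with a median log2 fold change of 2.95. Among them Cxcr2, a chemokine receptor, rose by 3.38 (SE 0.512, adjusted p = 0.00223), Retnlg by 2.55 (SE 0.531, adjusted p = 0.0116), the protease Mmp9 by 2.21 (SE 0.462, adjusted p = 0.0120) and the calprotectin subunit S100a9 by 2.89 (SE 0.652, adjusted p = 0.0185). In order of this sum the CIE libraries were mouse 8 (98.1 CPM), 6 (185 CPM), 40 (206 CPM), 24 (241 CPM), 25 (311 CPM), 23 (1009 CPM), 39 (1056 CPM), 26 (1766 CPM) and 41 (7471 CPM). The sums of mice 8, 6, 40 and 24 lay within the control range, with Fcrls at 829.9 to 1053 CPM. The other 5 sums lay above it, with Fcrls at 253 to 1028 CPM. Mouse 41, with the highest sum, had Fcrls at 1028 CPM, and mouse 26, with the second highest sum, had the lowest Fcrls level. With the mean level of the markers as a covariate no member passed the test, where 0.0743% of all genes were called lower: Fcrls was at -0.9995 (SE 0.266, adjusted p = 0.111) and Gpr34 at -0.54 (SE 0.178, adjusted p = 0.209), and the count of all called genes went from 373 to 55.

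Markers of other cells moved less. The 12 markers of border macrophages and monocytes summed to 1374 to 2821 CPM (median 1604) in control microglia libraries. In CIE they summed to 1303 to 3092 CPM (median 1608), and none of the 12 was at 0. Of the 10 tested 0 passed the test, where 3.47% of all genes were called in either direction. The smallest adjusted p was 0.0681 for Siglec1 (log2 fold change 1.13, SE 0.334). An unadjusted p under 0.05 was found for 3 of the 10, against 16.9% of all genes. With the level of these markers as a covariate, where 0.901% of all genes were called lower, Fcrls and Gpr34 remained called, at -1.08 (adjusted p = 0.0193) and -0.62 (adjusted p = 0.0420). Of 8 oligodendrocyte lineage markers, which summed to 1886 to 6223 CPM (median 3587) in control and 2074 to 7905 CPM (median 5750) in CIE, Mobp, a myelin protein gene, rose by 1.70 (SE 0.307, adjusted p = 0.00530). Mog, Mbp and Mag were at 0.87, 0.66 and 0.47 and did not pass. The 8 oligodendrocyte lineage markers had a median log2 fold change of 0.50. Of the 8, 3 had an unadjusted p under 0.05, against 16.9% of all genes. Astrocyte markers (9 tested), neuron markers (5 tested) and endothelial and mural cell markers (8 tested) gave 0 calls, and the 7 lymphocyte markers, at 45.0 CPM in sum or less in each library, were below the filter. The part of these cells in the fall of Fcrls and Gpr34 was not tested beyond the 2 covariate fits.

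Immediate early genes, which dissociation of tissue is known to induce, summed to 18994 to 38244 CPM in microglia and 337 to 976 CPM in homogenate libraries. Between CIE and control microglia 0 of 10 passed the test, where 3.47% of all genes were called in either direction. Atf3 had the smallest adjusted p, at 0.135 (log2 fold change -0.50, SE 0.180). An unadjusted p under 0.05 was found for 1 of the 10, against 16.9% of all genes.

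In the wider homeostatic program, 12 of 25 other genes had an unadjusted p under 0.05 in microglia, against 16.9% of all genes. Estimates were below 0 for 22 of the 25, and their median was -0.27 on the log2 scale. After adjustment 2 fell and 0 rose, where 1.15% of all genes were called lower. The 2 were Sparc, a matricellular protein gene, at -0.59 (SE 0.138, adjusted p = 0.0217), and Lag3, an inhibitory receptor gene, at -0.43 (SE 0.115, adjusted p = 0.0435). Sparc ranged from 2173 to 3213 CPM in control and from 984 to 2051 CPM in CIE microglia, without overlap. Rtn4rl1 (-0.42, adjusted p = 0.0515) and Ecscr (-0.52, adjusted p = 0.0683) did not pass.

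Of 18 regulators of microglial identity 2 fell and 0 rose (median -0.19), where 1.15% of all genes were called lower. An unadjusted p under 0.05 was found for 5 of the 18, against 16.9% of all genes. Irf8, one of the factors that set up the program, fell by 0.43 (SE 0.0919, adjusted p = 0.0144) from 524 to 649 CPM in control to 336 to 505 CPM in CIE, without overlap. Tgfb1, the ligand that maintains it, fell by 0.35 (SE 0.0936, adjusted p = 0.0451). Smad3 (-0.34, adjusted p = 0.172) and Maf (-0.43, adjusted p = 0.192) did not pass.

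Disease-associated microglia genes, which are known to rise as homeostatic genes decline, moved in both directions: of 13 tested, 3 rose and 3 fell, with a median of 0.16. Of all genes 3.47% were called in either direction. An unadjusted p under 0.05 was found for 8 of the 13, against 16.9% of all genes. Trem2, a lipid receptor gene, fell by 0.55 (SE 0.118, adjusted p = 0.0139), Cd9 by 0.39 (SE 0.0969, adjusted p = 0.0305) and the protease gene Ctsd by 0.44 (SE 0.116, adjusted p = 0.0387). Clec7a, a beta-glucan receptor gene, rose by 0.78 (SE 0.189, adjusted p = 0.0255), from a control median of 13.96 CPM to a CIE median of 26.2 CPM.

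Ligands and signaling partners of the members gave 0 calls among 9 tested of 11, with a median of -0.20. Of all genes tested in microglia 3.47% were called in either direction. An unadjusted p under 0.05 was found for 3 of the 9, against 16.9% of all genes. Abhd12, a lysophosphatidylserine lipase that limits the ligand of Gpr34, was at -0.29 (SE 0.0916, adjusted p = 0.0891), and Abhd16a and Pla1a, which make lysophosphatidylserine, were at -0.01 (adjusted p = 0.983) and 0.55 (adjusted p = 0.461). Cx3cl1, the ligand of Cx3cr1, was at -0.08 (adjusted p = 0.964), and Adam10 and Adam17, proteases that shed it, at -0.16 and -0.30 (adjusted p = 0.713 and 0.197). The adaptor Tyrobp was at -0.24 (adjusted p = 0.357), the inhibitory G protein subunit Gnai2 at -0.20 (adjusted p = 0.251) and the potassium channel Kcnk13 at -0.22 (adjusted p = 0.423).

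Host and neighboring genes also gave 0 calls among 3 tested of 7, where 3.47% of all genes were called in either direction. Of these 3, 1 had an unadjusted p under 0.05, against 16.9% of all genes. Med12l, the host of P2ry12 and P2ry13, had medians of 49.8 CPM in control and 42.4 CPM in CIE (log2 fold change -0.28, SE 0.15, adjusted p = 0.372), and Cask, the host of Gpr34, 80.3 and 76.6 CPM (-0.07, SE 0.124, adjusted p = 0.887). Both were far below the members inside them. P2ry14, a further purinergic receptor of the locus, was at 0.55 (SE 0.256, adjusted p = 0.275).

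How the members varied among themselves was described over the 17 microglia libraries. Pearson's r of log2 CPM over the 36 pairs ranged from 0.29 to 0.98 (median 0.78). Within CIE libraries it ranged from 0.45 to 0.96 (median 0.79), and within control libraries from -0.70 to 0.99 (median 0.48). In control Sall1 had a negative r with Olfml3 (-0.70), Fcrls (-0.24), P2ry13 (-0.22) and Tmem119 (-0.14). These libraries share treatment, range of mouse numbers and composition. The mean of the 9 genes, each centered on the log2 scale, was highest in control mouse 22, at 0.61, and lowest in CIE mice 26, 25 and 23, at -0.78, -0.71 and -0.48. The other 7 control libraries lay between 0.12 and 0.29, and the other 6 CIE libraries between -0.11 and 0.12. Of 9101 genes with at least 10 CPM on average, the 6 with the pattern most like this mean were Sparc (r = 0.97), Dtx4 (0.96), Cmtm6 (0.96), Adgre1 (0.95), Sec14l1 (0.94) and Oxct1 (0.93). Adgre1 encodes the macrophage surface protein F4/80. The 3 with the most opposite pattern were Arrdc2 (r = -0.94), Scarf2 (-0.90) and Alox5 (-0.87), over the same 17 libraries.

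In astrocyte libraries 0 of the 9 genes passed the test, where 2.22% of all genes tested were called lower and 5.13% in either direction, and 1 of the 9 had an unadjusted p under 0.05, against 21% of all genes. Fcrls ranged from 89.8 to 394 CPM (median 237) in control and from 65.3 to 242 CPM (median 177) in CIE, with a log2 fold change of -0.66 (SE 0.277, adjusted p = 0.171). The other 8 estimates ran from -0.23 for Gpr34 to 0.23 for Tmem119, with SEs of 0.168 to 0.253. DESeq2 also called 0 of the 9, among 1166 genes called in all, and gave 3.6% of the genes with an adjusted p as lower. The level of the members as a group varied several-fold among these libraries: their sum was 847 to 3420 CPM in control and 1366 to 2949 CPM in CIE. The sum of the 7 lineage genes was 1359 to 5385 CPM in control and 2564 to 6020 CPM in CIE, with a median log2 fold change of 0.35 and 0 calls.

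In total homogenate, where no cells were selected, 0 of the 9 genes passed the test, against 0.0572% of all genes called lower and 0.25% in either direction. Fcrls came nearest: it ranged from 33.3 to 54.7 CPM (median 45.4) in control and from 9.07 to 38.1 CPM (median 25.0) in CIE, and 7 of 9 CIE libraries lay below the lowest control library. Its log2 fold change was -0.79 (SE 0.190, adjusted p = 0.0947), and the lowest library was that of CIE mouse 26, as in microglia. DESeq2 called it (adjusted p = 0.0127), with 0.242% of the genes that had an adjusted p called lower, as did the fit adjusted for mouse number ranges (adjusted p = 0.0379), with 0.157% of all genes called lower. Over the alternatives its adjusted p ranged up to 0.309. Gpr34 was at -0.37 (SE 0.144, adjusted p = 0.378) and P2ry12 at -0.30 (SE 0.117, adjusted p = 0.390), and these 3 genes had an unadjusted p under 0.05, as did 9.2% of all genes. The other 6 genes lay between -0.12 for Olfml3 and 0.10 for Siglech. The 7 lineage genes had a median log2 fold change of 0.23 and 0 calls in homogenate.

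Neutrophil marker levels also varied among the homogenate libraries. The 12 markers summed to 3.57 to 27.1 CPM (median 17.5) in control and 5.14 to 833 CPM (median 26.2) in CIE, and none was at 0 across the libraries. Of the 6 tested 0 passed the test (median log2 fold change 3.32, smallest adjusted p = 0.164), where 0.25% of all genes were called in either direction. All 6 had an unadjusted p under 0.05, against 9.2% of all genes. The highest sum was in mouse 26, which had the lowest Fcrls level, followed by mouse 23 at 266 CPM (Fcrls 25.0 CPM), mouse 25 at 126 CPM (Fcrls 17.9 CPM) and mouse 24 at 33.0 CPM (Fcrls 23.3 CPM). The sums of the other 5 CIE libraries, 5.14 to 26.2 CPM, lay within the control range, with Fcrls at 23.9 to 38.1 CPM. A fit that took the neutrophil marker level into account, added once the data had been seen, put Fcrls at -0.65 (SE 0.170, adjusted p = 0.120), and 0 of the 9 were called, where 0.093% of all genes were called lower. The 12 border macrophage and monocyte markers summed to 43.3 to 137 CPM (median 108) in control and 35.9 to 307 CPM (median 146) in CIE homogenate, with 0 of 7 tested called and a median log2 fold change of 0.54, and their part in the values of Fcrls was not tested. In astrocyte libraries the neutrophil markers summed to 1.10 to 15.0 CPM in control and 3.43 to 233 CPM in CIE. Of 9 border macrophage and monocyte markers tested there, with a median log2 fold change of 0.29, 2 rose. Of all 12878 genes tested there 375 were called higher.

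**Figure D3:**
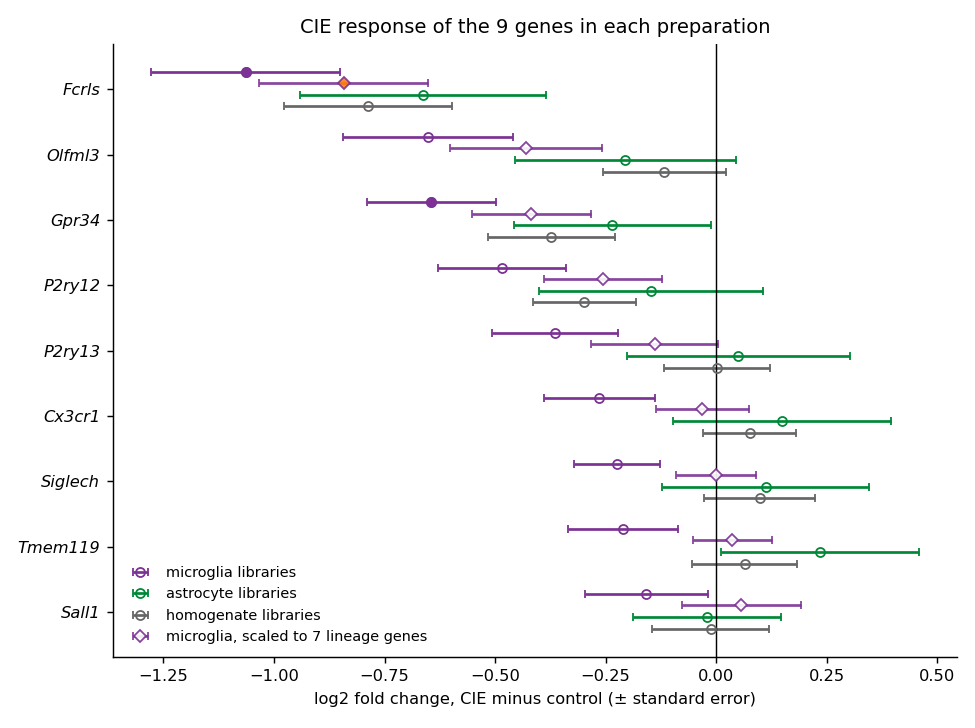
Log2 fold change of each gene between CIE and control, with its standard error, in microglia, astrocyte and homogenate libraries (8 control and 9 CIE mice each), and in microglia libraries scaled to the 7 macrophage lineage genes (diamonds); filled symbols have an adjusted p under 0.05. Fcrls has the lowest value in each preparation, at -1.06, -0.66 and -0.79, and Gpr34 is called in microglia on TMM scaling.

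The difference in response between preparations was tested in 1 model of all 51 libraries. Of the 9 genes 0 differed between microglia and astrocyte libraries, where 0.529% of all genes did, and the differences ran from -0.48 for Olfml3 (SE 0.301, adjusted p = 0.596) to -0.16 for Sall1 (SE 0.216, adjusted p = 0.860). Likewise 0 differed between microglia and homogenate, against 0.828% of all genes, with differences from -0.55 for Olfml3 (SE 0.305, adjusted p = 0.530) to -0.16 for Sall1 (SE 0.218, adjusted p = 0.892). Fcrls differed by -0.43 (SE 0.347) and -0.30 (SE 0.352) in these 2 comparisons. Between astrocyte and homogenate libraries 0 of 9 differed, against 0.00695% of all genes, with differences from -0.08 to 0.18. The calls in microglia were therefore not shown to be particular to that preparation.

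Per kilobase of exon, on TMM scaling over all libraries, the order of levels in control microglia was Cx3cr1 (1192 ± 206 CPM per kb, SD, n = 8), Tmem119 (1029 ± 196), P2ry12 (869 ± 169), Fcrls (815 ± 91.2), Olfml3 (656 ± 105), Gpr34 (376 ± 69.3), Siglech (357 ± 23.9), P2ry13 (315 ± 54.9) and Sall1 (194 ± 29.5). Neighboring pairs within the first 4 places, and within Gpr34, Siglech and P2ry13, differed by less than the larger SD of the pair, and the other neighboring pairs by more. In CIE microglia (n = 9) Fcrls was at 382 ± 135 CPM per kb, after Olfml3 at 409 ± 137, and Gpr34 at 236 ± 51.9, after Siglech at 300.2 ± 37.3 and P2ry13 at 239.7 ± 56.9. Cx3cr1 was highest in each preparation and group, at 149.8 ± 68.3 and 166 ± 44.2 CPM per kb in control and CIE astrocyte libraries and at 27.1 ± 3.55 and 28.4 ± 4.67 in homogenate.

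As a gauge of microglial RNA, all 9 genes were higher in control microglia than in control homogenate, by a median of 5.39 on the log2 scale, from 4.53 for Sall1 (SE 0.182, adjusted p = 2.7e-28) to 5.67 for P2ry13 (SE 0.245, adjusted p = 4.83e-27), where 37.5% of all genes were called higher. They were higher than in astrocyte libraries by a median of 2.99, from 2.30 for Sall1 to 3.10 for Tmem119, where 35.7% of all genes were called higher. All 9 were also higher in astrocyte libraries than in homogenate, by a median of 2.46, from 2.19 for Olfml3 to 2.68 for P2ry13, where 36.2% of all genes were. The selected astrocyte libraries thus held more RNA of these genes per count sequenced than unselected tissue.

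Taken per mouse as a percent of the CPM (of library totals) in the microglia library of that mouse, the median of the 9 genes in astrocyte libraries was 6.62% to 30.7% in control (median 14.1%, mean 16.1% ± 7.93, SD, n = 8) and 15.1% to 34.4% in CIE mice (median 20.3%, mean 20.6% ± 5.67, SD, n = 9). The lowest were control mouse 5 and CIE mouse 6, the highest control mouse 19 and CIE mouse 23, and the groups overlapped. Fcrls gave 13.97% and 19.7% as medians in control and CIE, near those of Cx3cr1 (14.3% and 19.9%) and Tmem119 (14.1% and 19.9%). In homogenate the median of the 9 genes was 1.55% to 4.13% in control (median 2.64%) and 2.07% to 4.37% in CIE mice (median 3.53%), again with overlap. These percents are descriptions with no test, and they depend on the composition of the microglia library in the denominator.

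Sall1 stood above the other 8 genes on this measure. In astrocyte libraries it had the highest percent of the 9 genes in 17 of 17 mice, with medians of 24.8% in control and 26.5% in CIE mice. In homogenate it was highest in 14 of 17 mice, with medians of 4.68% and 4.61%, and Olfml3 was highest in the other 3. The remaining genes kept close to each other in astrocyte libraries, with control medians from 13.7% for P2ry13 to 14.4% for P2ry12 and CIE medians from 18.9% for P2ry12 to 21.4% for Olfml3.

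**Figure D4:**
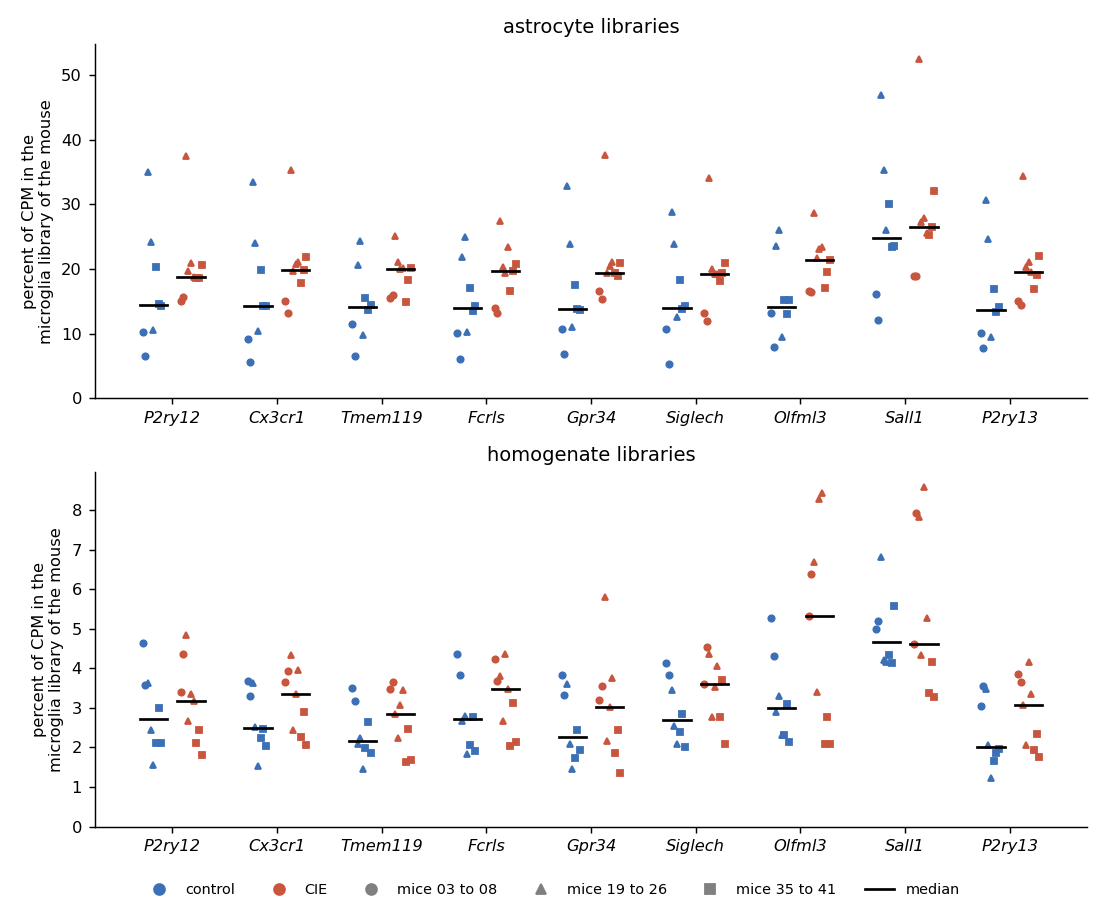
Level of each gene in astrocyte libraries (top) and homogenate libraries (bottom) as a percent of its CPM in the microglia library of the same mouse; each point is 1 mouse (8 control, 9 CIE), its shape gives the range of mouse numbers, and bars mark medians. Sall1 has the highest medians in astrocyte libraries, 24.8% in control and 26.5% in CIE, while the other 8 genes have medians of 13.7% to 21.4%.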

How the data were processed

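RNA-seq was analysed in 51 libraries of 17 mice. The deposited files hold whole counts per gene symbol made by the authors, with no normalization. Per the submitters' processing notes, bcl2fastq 2.17, Cutadapt 1.8, STAR 2.5.0a, Picard 1.141 and HTSeq 0.6.1p1 were used with mm10, and the strand setting and annotation release are not given in the sources used here. The 5 rows naming no gene, 22.1% to 67.1% of a library's counts, were left out. The neutrophil marker Ly6g was not analysed here, and 1 of the 7 lineage reference genes is not reported here by itself.

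Each preparation was fitted with edgeR 4.0.16 in R 4.3.3 (TMM, filterByExpr, its quasi-likelihood test between CIE and control, p adjusted over all genes by Benjamini-Hochberg, threshold 0.05). The method was checked only on counts simulated from the fitted means and spreads, with no effect of cell composition or mouse number range. The standard error is the log2 fold change over the square root of F. Preparations were set against each other, in level and in response, by contrasts of 1 model with 6 groups and all 51 libraries. DESeq2 1.42.0 and other scalings, filters, covariates and left-out mice were alternatives. The number in a library's label was taken as the mouse. Deviations from group means had a median correlation of 0.0706 (-0.20 to 0.37) over 51 pairs of libraries with the same number. Between different numbers the median was -0.00712 (-0.29 to 0.30), so the ranges overlapped.

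Exon lengths were taken from GENCODE M21 within RefSeq gene bounds, and promoters from RefSeq GRCm38.p6. Members and lists were chosen with earlier results of these data known. Named were the 9 members, up to 4 genes per list by adjusted p in microglia, all partners and neighboring genes that could be tested, and the 9 genes most or least like the members' mean. Plots were drawn with matplotlib 3.10.9 in Python 3.11.15.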

Additional observations from a re-analysis of the deposited data

Results flagged for a closer look

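Of 54 groups of libraries tested for an outlying value (9 genes, 3 preparations, 2 treatments), 1 was flagged, and chance flags about 1 in 20 such groups. Cx3cr1 in control mouse 22 was at 5605 CPM in the microglia library, where the next highest control was at 4199 CPM and the lowest at 3162 CPM, so that the gap took a share of 0.575 of the range. The same library was the highest control for 8 of the 9 genes, all but Sall1, and had the fewest counts among control microglia, 1025527. Without mouse 22 the calls for Fcrls and Gpr34 in microglia held.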

How the results depend on the processing

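Of the 9 genes 2 were called in microglia, and 2 to 3 with 1 mouse left out. The count was 4 with DESeq2, 4 with mouse number ranges as a covariate, 1 with scaling to 7 lineage genes (Fcrls) and 0 with the neutrophil covariate; RLE factors, library totals, both other filters, the border macrophage covariate and leaving out the 4 mice numbered under 10 gave 2. Fcrls ran from -1.18 to -0.84 over 27 alternatives and was called in 26, and Gpr34 from -0.75 to -0.42, called in 25. In astrocyte libraries 0 were called, 0 with any 1 mouse left out, and 1 with a border macrophage covariate chosen after seeing the data (Fcrls -1.16, adjusted p = 0.0426, with 0.0426 to 0.284 over all alternatives). In homogenate 0 were called, 0 with any 1 mouse left out, 1, Fcrls, with DESeq2 and with the range covariate, and 0 with a neutrophil covariate chosen after seeing the data. The cause of these changes was not tested.

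Estimates near 0 changed sign. Scaling to the lineage genes gave Tmem119 0.036 and Sall1 0.057 in microglia, Cx3cr1 -0.045, Siglech -0.094 and P2ry13 -0.16 in astrocyte, and Cx3cr1 -0.0092, Tmem119 -0.027 and P2ry13 -0.072 in homogenate libraries, and moved the median of all genes to 0.22, -0.39 and -0.060. The neutrophil covariate gave Sall1 0.017 in microglia. In astrocyte libraries the border macrophage covariate gave Cx3cr1 -0.38, Tmem119 -0.21, Siglech -0.41 and P2ry13 -0.52, and P2ry13 was at -0.041 without mice numbered under 10. In homogenate Sall1 was at 0.0063 on library totals, and P2ry13 at -0.0082 with no filter and -0.0015 over genes with no 0 count. With 1 mouse left out P2ry13 ran from -0.065 to 0.19 in astrocyte and from -0.061 to 0.045 in homogenate, Sall1 from -0.11 to 0.063 and from -0.096 to 0.053, Siglech in astrocyte from -0.014 to 0.23, and the Sall1 response of microglia against astrocyte from -0.29 to 0.0062.

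The number of all genes called varied more. From 373 in microglia (124 lower) it became 754 with DESeq2, 906 on lineage scaling (15 lower), 273 on library totals (54 lower), 775 with the range covariate, 727 without mice numbered under 10, 55 with the neutrophil covariate (8 lower) and 182 to 684 with 1 mouse left out. From 661 in astrocyte libraries it became 1166, 14, 1129 and 1132 with DESeq2, lineage scaling, the range covariate and without those mice, 214 with the border covariate, and 354 to 1001 with 1 mouse left out. From 35 in homogenate it became 192, 22, 81 and 7 under the first 4 of these, and 15 to 71. With mouse as a replicate block 9 of 9 levels and 0 of 9 responses were called in each comparison, as without the block, and no other call of a member changed. The microglia libraries, at 571878 to 6026453 counts, were the shallowest.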
